A study of Mus musculus with 6 samples.

Results

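The mitochondrial contact site and cristae organizing system (MICOS) and its outer-membrane partners were examined as transcripts in mouse cortical neurons depleted of Opa1. The 10 genes were chosen by symbol, as 6 MICOS subunits (Immt, Chchd3, Chchd6, Micos13, Apool and Apoo) and 4 partners in the outer membrane (Samm50, Mtx1, Mtx2 and Dnajc11). All 10 were among the 55471 gene identifiers of the count table, and all 10 passed the low-count filter that left 16562 genes for testing. The shOpa1 cultures, labelled as Opa1 knock-down, were CD1 mouse neurons given lentivirus with a short hairpin RNA against Opa1, and the shControl cultures, labelled as WT, received a control hairpin. Both kinds of culture came from embryonic cortices, were kept with 2 uM cytosine arabinoside, a drug that kills dividing cells, were transduced on day 6 and gave RNA on day 11. There were 3 libraries per group, described as biological replicates, and the labels do not say whether embryos were pooled or how many hairpins were used. Lentivirus can enter many cell types, and which cells of the cultures were transduced was not measured in this bulk RNA.

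MICOS sits in the inner mitochondrial membrane at the narrow necks, or cristae junctions, through which cristae open to the rest of the inner membrane. Its core subunit Mic60, encoded by Immt, binds the sorting and assembly machinery of the outer membrane, of which Samm50 is the central beta-barrel, and the joint assembly is called the intermembrane space bridge. Neurons rely on cristae for respiration along axons and at synapses. Opa1, a GTPase of the inner membrane, fuses inner membranes and acts with MICOS in keeping cristae junctions narrow.

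Transcripts of the bridge moved in both directions in shOpa1 neurons. Immt, Samm50 and Mtx1 fell, Chchd3, Chchd6 and Mtx2 rose, and Micos13, Apool, Apoo and Dnajc11 did not pass the test. That is 6 of 10 genes with an adjusted p under 0.05 (edgeR quasi-likelihood test, Benjamini-Hochberg over all tested genes), against 38.9% of all tested genes. The 3 higher genes stood against a background of 18.9% of tested genes called higher, and the 3 lower genes against 20.0% called lower. The groups did not overlap for 8 of the 10 genes, against 51.8% of all tested genes. The median log2 fold change of the 10 was -0.16, against -0.01 over all tested genes, and the median of its size without sign was 0.380, against 0.334. The size of change over the 10 was thus close to that over all genes, and the subunits are described individually. In deviation from its group mean, each of the 6 libraries correlated best with the same-numbered library of the other group. The labels do not say that equal numbers share a culture. With the pair as a block, 7 of the 10 were called, Apoo being the addition, but so were 59.5% of all tested genes.

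Sequences of 3 MICOS promoters are shown because these genes lie on the same chromosome and Immt moved opposite to Chchd3 and Chchd6. Each run is 120 bases up to the base before the RefSeq transcript start (GRCm38.p6), read 5′ to 3′ on the gene's strand, with each CCAAT box in capitals.
Immt, chr6:71831200-71831319, plus strand: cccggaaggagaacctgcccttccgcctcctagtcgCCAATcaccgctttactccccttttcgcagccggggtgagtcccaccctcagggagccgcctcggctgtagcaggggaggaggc
Chchd3, chr6:33060261-33060380, minus strand: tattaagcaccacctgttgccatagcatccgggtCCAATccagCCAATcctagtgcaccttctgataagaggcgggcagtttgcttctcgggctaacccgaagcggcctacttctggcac
Chchd6, chr6:89595653-89595772, minus strand: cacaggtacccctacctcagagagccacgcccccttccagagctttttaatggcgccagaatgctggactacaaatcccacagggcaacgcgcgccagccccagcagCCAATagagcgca
The CCAAT letters, searched on both strands of the 250 bases before the start, were present in 5 of the 9 genes with a RefSeq promoter, namely Immt, Chchd3, Chchd6, Apool and Samm50. They were present in 33.8% of the 32851 promoters of the table. The letters were thus shared by genes that rose and genes that fell.

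The promoter of Mtx2 is shown because it was the only 1 of the 9 with an ETS letter match, in capitals, on the same build and over the same 120 bases.
Mtx2, chr2:74825692-74825811, plus strand: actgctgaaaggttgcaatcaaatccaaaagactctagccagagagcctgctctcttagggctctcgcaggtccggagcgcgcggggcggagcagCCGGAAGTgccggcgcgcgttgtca
The letters CCGGAAGT were present in 2.88% of all promoters. The letters GCATGCGC (NRF1 core, in 2.26% of promoters), AAGATGGC (YY1, 1.56%), TGACGTCA (CREB and ATF, 1.55%) and TGATGNAA (ATF4 and CEBP, 3.45%) were in 0 of the 9 windows. A match is only a run of letters in this window and is not a measured binding site.

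Libraries held 24676709 to 32961580 counts. Opa1, the targeted gene, averaged 9.10 ± 0.916 CPM (counts scaled to library size) in shOpa1 and 203 ± 1.54 CPM in shControl (SD, n = 3 each). Principal component 1 (56.5% of variance) separated the groups, and component 2 (26.4%) set the replicate 3 library of each group apart. Marker levels moved with the groups. The 10 neuronal markers summed to 5133 to 5474 CPM in shOpa1 and 7464 to 8004 CPM in shControl, with 1 higher and 6 lower. The 8 astrocyte markers summed to 113 to 155 CPM in shOpa1 and 238 to 389 CPM in shControl, with 1 higher and 3 lower. Slc1a2 made up most of the astrocyte sum, at a mean of 103 CPM in shOpa1 and 247 CPM in shControl. With the replicate block, 1 neuronal marker was higher and 9 lower, and 1 astrocyte marker was higher and 6 lower. Of all tested genes, 18.9% were called higher and 20.0% lower by group, and 28.8% higher and 30.7% lower with the block. Oligodendrocyte-lineage markers summed to 36.1 to 50.5 CPM in shOpa1 and 45.3 to 67.7 CPM in shControl, dividing-progenitor markers to 56.5 to 120 CPM in shOpa1 and 79.0 to 162 CPM in shControl, and endothelial and fibroblast markers to 5.81 to 51.6 CPM in shOpa1 and 10.4 to 21.8 CPM in shControl. In these lists 2 of 6, 2 of 7 and 0 of 5 tested genes were lower, and 0 were higher. The 8 microglial markers summed to 3.36 to 4.77 CPM in shOpa1 and 5.64 to 8.17 CPM in shControl. Only Aif1 was high enough to be tested (lower). It made up most of both sums, at a mean of 2.98 CPM in shOpa1 and 5.98 CPM in shControl. The other microglial markers were near the floor and went both ways. Csf1r was higher without overlap, at a mean of 0.340 CPM in shOpa1 and 0.182 CPM in shControl, while Itgam had 0 counts in all shOpa1 libraries. Sox10, of the oligodendrocyte lineage, had 0 counts in all shControl libraries. In bulk RNA, fewer cells of a type and less RNA per cell cannot be told apart, and the part of cell makeup in the changes below was not tested.

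Immt encodes Mic60, the membrane-bending core around which MICOS assembles (ENSMUSG00000052337, chr6:71831331-71877388, plus strand, GRCm38). It had 97.2, 101 and 99.5 CPM in the shOpa1 libraries, against 158, 166 and 163 CPM in the shControl libraries. Every shOpa1 library lay well below every shControl library, and replicates within a group differed by only a few CPM. The mean was 99.3 ± 2.10 CPM in shOpa1 and 163 ± 3.69 CPM in shControl (SD, n = 3 each), a log2 fold change of -0.71 (SE 0.0538; edgeR adjusted p = 0.000131). The 3 pairs of equal replicate number gave log2 differences of -0.70, -0.71 and -0.71.

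Chchd3 encodes Mic19, a coiled-coil-helix subunit that links Mic60 to the outer-membrane machinery (ENSMUSG00000053768, chr6:32790976-33060260, minus strand). It had 57.9, 60.2 and 51.0 CPM in shOpa1, against 47.2, 44.9 and 42.5 CPM in shControl. The lowest shOpa1 library, replicate 3, was above the highest shControl library by less than the range within shOpa1. The means were 56.3 ± 4.81 CPM in shOpa1 and 44.9 ± 2.39 CPM in shControl, a log2 fold change of 0.33 (SE 0.0838; edgeR adjusted p = 0.0182). This call depended on single libraries, with an edgeR adjusted p of 0.0652 without shOpa1 replicate 1, 0.0729 without shOpa1 replicate 2 and 0.0639 without shControl replicate 2.

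Chchd6 encodes Mic25, the paralogue of Mic19 (ENSMUSG00000030086, chr6:89383146-89595652, minus strand). Its values were 73.7, 79.3 and 75.4 CPM in shOpa1, against 61.5, 64.7 and 61.5 CPM in shControl, with no overlap. The means were 76.2 ± 2.84 CPM in shOpa1 and 62.6 ± 1.82 CPM in shControl, a log2 fold change of 0.28 (SE 0.0607; edgeR adjusted p = 0.00920). Chchd6 was higher in shOpa1 in all 3 pairs, by 0.26, 0.29 and 0.29 on the log2 scale. Both paralogues of the Mic60-binding coiled-coil-helix family were thus higher while Immt was lower.

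**Figure D1:**
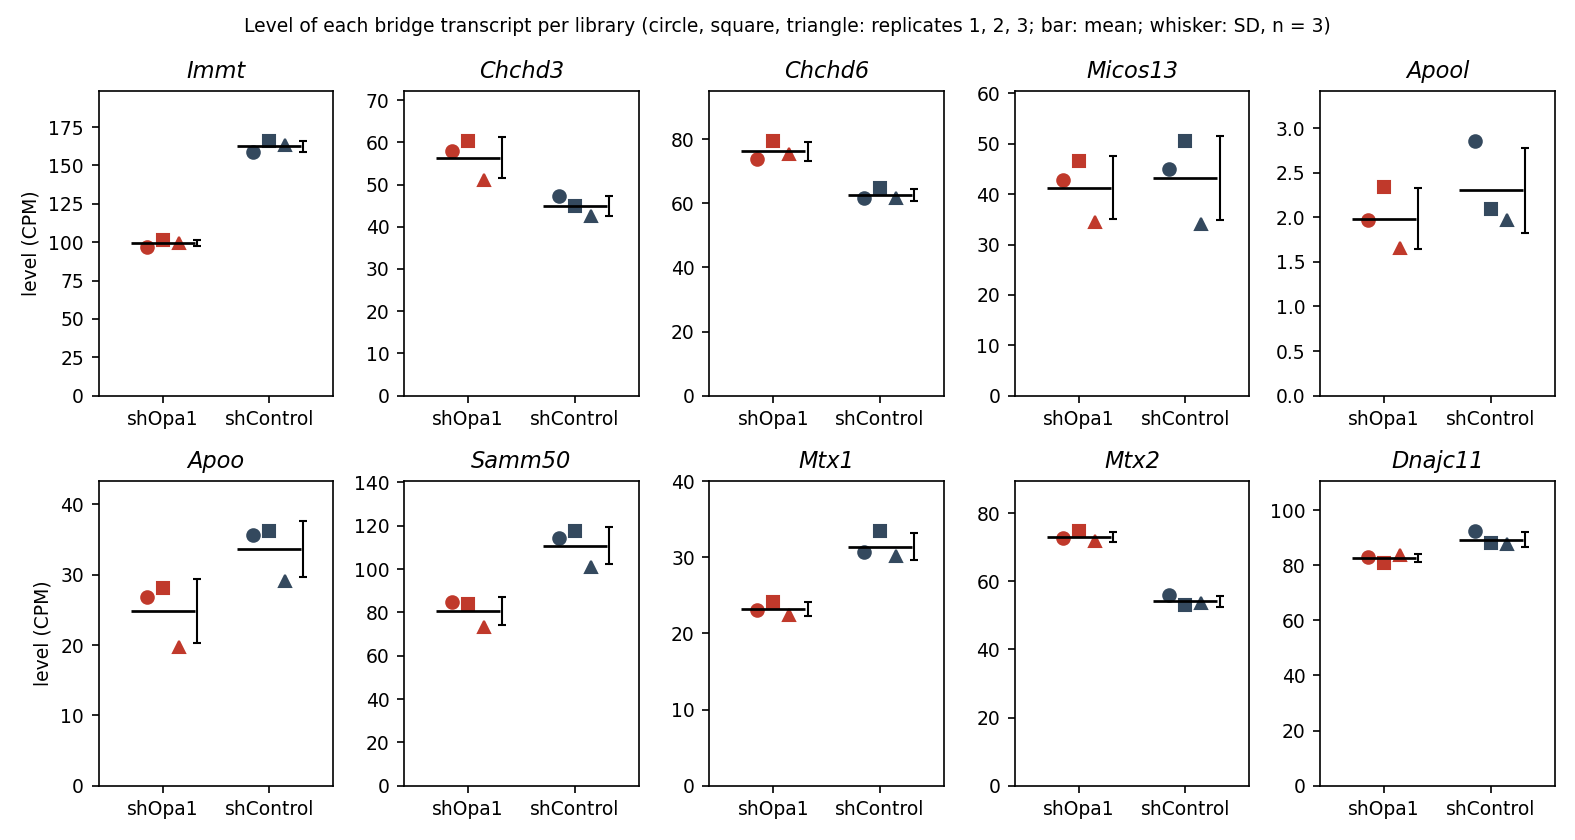
Level of each of the 10 transcripts in CPM (vertical axes, each from 0) in the 3 shOpa1 libraries (left, red) and the 3 shControl libraries (right, dark). Circles, squares and triangles are replicates 1, 2 and 3, bars are means and whiskers are SD; Immt is at 97.2 to 101 CPM in shOpa1 and 158 to 166 CPM in shControl, while Micos13 and Apool overlap between groups.

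Apoo encodes Mic26, an apolipoprotein O family subunit of the MICOS branch tied to cardiolipin (ENSMUSG00000079508, chrX:94367117-94417093, plus strand). It had 26.8, 28.1 and 19.7 CPM in shOpa1, against 35.7, 36.2 and 29.1 CPM in shControl. Replicate 3 was the lowest in each group, and shOpa1 replicate 2 lay just under shControl replicate 3. The means were 24.9 ± 4.55 CPM in shOpa1 and 33.7 ± 3.94 CPM in shControl, and the log2 fold change of -0.44 did not pass the test (SE 0.153; edgeR adjusted p = 0.0579). With the replicate pair as a block the same log2 fold change of -0.44 had an SE of 0.0637 and passed (edgeR adjusted p = 0.000115), the pair differences being -0.40, -0.36 and -0.55. A processed copy, Apoo-ps, was counted separately at 12 to 20 reads per library against 643 to 968 for Apoo. How reads that match both were counted was not examined.

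Apool encodes Mic27, the paralogue of Mic26 (ENSMUSG00000025525, chrX:112311334-112372755, plus strand). It was the rarest of the 10, with 53 to 80 reads per library. Its values were 1.97, 2.34 and 1.65 CPM in shOpa1, against 2.85, 2.09 and 1.97 CPM in shControl, so the groups overlapped. Its log2 fold change was -0.21 (SE 0.229; edgeR adjusted p = 0.507), an error too wide to show a change of the size seen in Chchd6. Single libraries moved this value, to -0.03 without shControl replicate 1, -0.09 without shOpa1 replicate 3 and -0.34 without shOpa1 replicate 2.

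Micos13 encodes Mic13, which joins the Mic60 branch to the Mic10 branch of the complex (ENSMUSG00000049760, chr17:56607452-56609771, minus strand). It had 42.9, 46.6 and 34.4 CPM in shOpa1, against 45.0, 50.5 and 34.1 CPM in shControl. The spread between replicate numbers was larger than that between groups, with replicate 3 lowest in both. The log2 fold change was -0.06 (SE 0.167; edgeR adjusted p = 0.789).

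Among the outer-membrane partners, Samm50 encodes the beta-barrel that inserts other barrel proteins and to which MICOS docks (ENSMUSG00000022437, chr15:84192241-84217267, plus strand). It had 85.0, 84.0 and 73.2 CPM in shOpa1, against 114, 117 and 101 CPM in shControl. Replicate 3 was the lowest in each group, and the highest shOpa1 library was still below the lowest shControl library. The means were 80.7 ± 6.53 CPM in shOpa1 and 111 ± 8.67 CPM in shControl, a log2 fold change of -0.46 (SE 0.0871; edgeR adjusted p = 0.00564). The pair differences were -0.42, -0.48 and -0.46.

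The metaxins are outer-membrane proteins that face the cytosol and bind Samm50. Mtx1 (ENSMUSG00000064068, chr3:89209081-89227088, minus strand) had 23.1, 24.2 and 22.4 CPM in shOpa1, against 30.7, 33.4 and 30.1 CPM in shControl, with no overlap. Its log2 fold change was -0.44 (SE 0.0762; edgeR adjusted p = 0.00390). This count is uncertain, because 30.1% of the exon length of Mtx1 is overlapped by 2 genes of the opposite strand and the counting command names no strand option. The first, Gm43737, overlaps 759 bases and was itself lower, with a log2 fold change of -0.67 (edgeR adjusted p = 0.0131). The second, Thbs3, overlaps 318 bases and had a log2 fold change of -0.60 that did not pass (edgeR adjusted p = 0.0919). Whether reads in the shared bases were dropped or counted for Mtx1 was not examined. The part of such reads in the fall of Mtx1 was not tested.

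Mtx2, the metaxin that works beside Mtx1, moved the other way (ENSMUSG00000027099, chr2:74825803-74878431, plus strand). It had 72.7, 74.6 and 71.8 CPM in shOpa1, against 56.0, 53.0 and 53.5 CPM in shControl. The shOpa1 libraries lay within a few CPM of each other and far above the shControl libraries. The means were 73.1 ± 1.45 CPM in shOpa1 and 54.2 ± 1.64 CPM in shControl, a log2 fold change of 0.43 (SE 0.0584; edgeR adjusted p = 0.00137). Dnajc11, a J-domain protein found with the bridge (ENSMUSG00000039768, chr4:151933691-151982137, plus strand), had 83.2, 80.9 and 83.6 CPM in shOpa1, against 92.3, 88.0 and 87.7 CPM in shControl. Its groups did not overlap, but the log2 fold change of -0.11 was small and did not pass (SE 0.0559; edgeR adjusted p = 0.148).

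**Figure D2:**
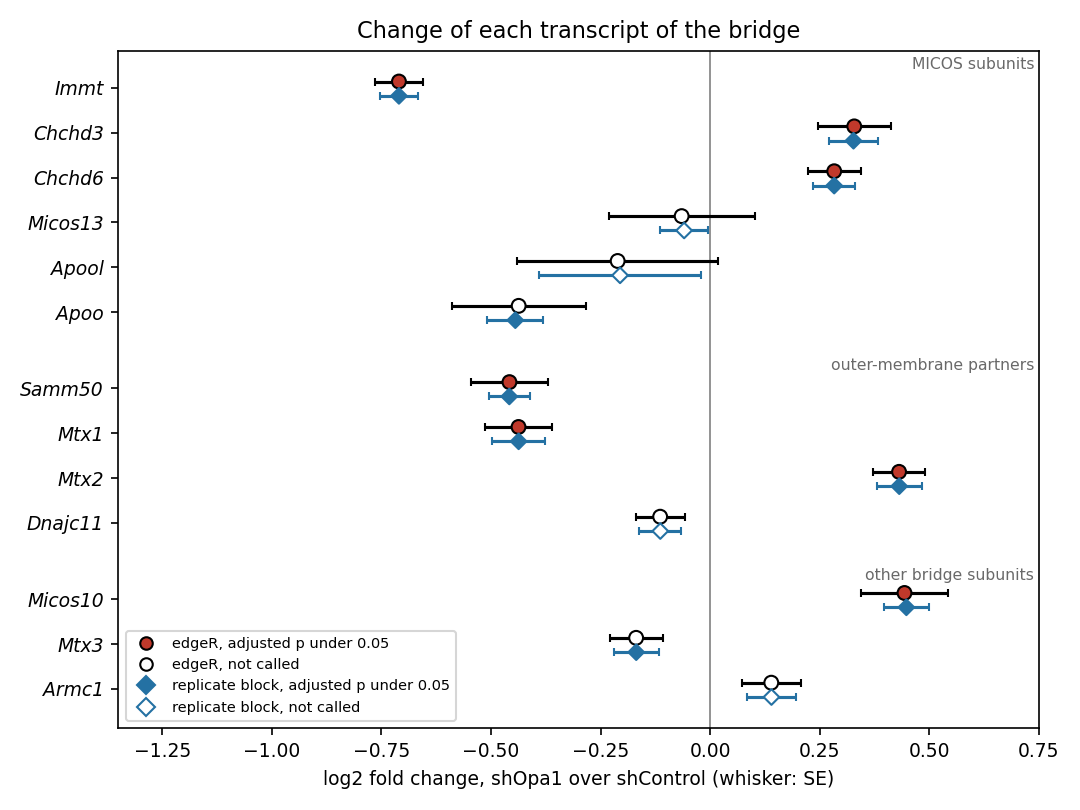
Log2 fold change of shOpa1 over shControl (horizontal axis) for the 10 genes and 3 further bridge subunits, with whiskers of 1 SE. Circles are the edgeR fit by group and diamonds the fit with the replicate pair as a block, filled where the adjusted p is under 0.05; Immt lies lowest at -0.71, and the diamond but not the circle of Apoo is filled.

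In the authors' deposited table, 7 of the 10 had an adjusted p under 0.05, against 40.9% of genes with an adjusted p in that table. The log2 fold change of Immt in the authors' deposited table was -0.70 (SE 0.0599, adjusted p 4.81e-30). Apoo was among the 7 there, and its log2 fold change in the authors' deposited table was -0.44 (SE 0.0929, adjusted p 1.36e-05). That SE lies below the 0.167 that DESeq2 by group gave here for Apoo. The authors' model may therefore differ from a fit by group alone. The authors' deposited table gave each of the 6 genes called here in the same direction.

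Another core MICOS subunit and 2 further proteins of the bridge are not among the 10. Micos10 encodes Mic10, whose oligomers bend the membrane at the junction, and it had 108, 114 and 99.8 CPM in shOpa1, against 82.5, 85.8 and 68.3 CPM in shControl. Its groups did not overlap, and it rose by a log2 fold change of 0.44 (SE 0.0993; edgeR adjusted p = 0.0110). Mtx3, another metaxin, averaged 50.4 ± 1.53 CPM in shOpa1 and 56.6 ± 1.43 CPM in shControl, with an edgeR adjusted p of 0.0612 by group and 0.0157 with the block. Armc1, which binds the bridge from the cytosol, averaged 57.4 ± 2.64 CPM in shOpa1 and 52.1 ± 2.32 CPM in shControl (edgeR adjusted p = 0.143).

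For 3 pairs of related subunits, the ratio of their levels was taken per exon length (RPKM, CPM divided by merged exon length in kilobases) in each library. The ratio of Mtx2 to Mtx1 was 3.07, 3.01 and 3.13 in shOpa1, against 1.78, 1.55 and 1.73 in shControl. All shOpa1 ratios exceeded all shControl ratios, by 0.87 on the log2 scale or 1.82-fold (two-sided exact permutation test, p = 0.1, the smallest that 3 against 3 allows; 0.3 adjusted over the 3 ratios). This ratio carries the uncertainty of the Mtx1 count. The ratio of Chchd6 to Chchd3 was 1.46, 1.51 and 1.70 in shOpa1, against 1.50, 1.66 and 1.66 in shControl, overlapping groups with a log2 difference of -0.04 (exact permutation p = 0.8, adjusted 0.8). The ratio of Apool to Apoo was 0.0264, 0.0300 and 0.0302 in shOpa1, against 0.0288, 0.0208 and 0.0243 in shControl, with a log2 difference of 0.24 (exact permutation p = 0.2, adjusted 0.3). It was 0.12 without shControl replicate 2 and 0.36 without shControl replicate 1.

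**Figure D3:**
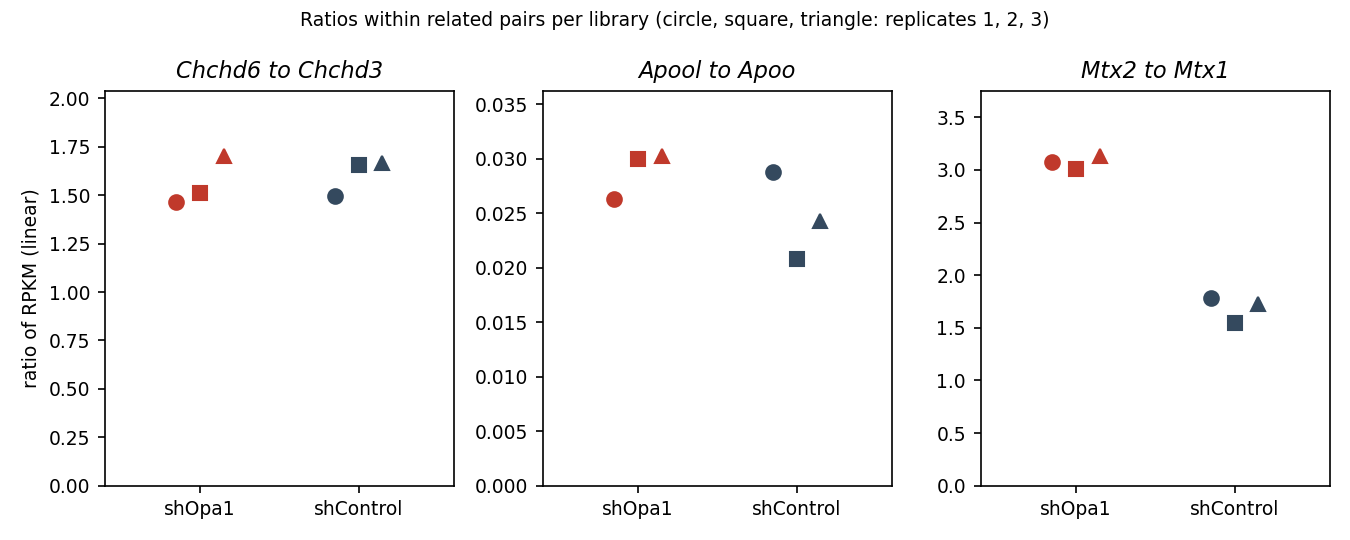
Ratio of RPKM within 3 related pairs (vertical axes, linear, from 0) in each shOpa1 library (left, red) and shControl library (right, dark), with circles, squares and triangles for replicates 1, 2 and 3. The ratio of Mtx2 to Mtx1 lies at 3.01 to 3.13 in shOpa1 and 1.55 to 1.78 in shControl, and the other 2 ratios overlap between groups.

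Summed over the 6 MICOS subunits, the level was 116, 124 and 102 RPKM in shOpa1, against 122, 128 and 106 RPKM in shControl. The means were 114 ± 11.2 RPKM in shOpa1 and 119 ± 11.4 RPKM in shControl, a difference smaller than the spread within a group, although shOpa1 was lower in all 3 pairs of equal replicate number. The log2 difference of -0.06 changed sign to 0.10, with shOpa1 higher in all 3 pairs, when levels were scaled to a fixed total per length (TPM). It was 0.02 without shOpa1 replicate 3, -0.12 without shOpa1 replicate 2, -0.04 without shControl replicate 1, -0.0053 without shControl replicate 2 and -0.14 without shControl replicate 3. The 4 outer-membrane partners summed to 47.0, 47.4 and 44.8 RPKM in shOpa1, against 49.9, 49.9 and 46.6 RPKM in shControl, a log2 difference of -0.07. This was lower in all 3 pairs, became 0.09 in TPM with all 3 pairs higher, and was -0.12 with the length of the longest coding transcript. The direction of either sum therefore depended on the scaling. Micos10, which is not among the 10, is in neither the MICOS sum nor the shares below. It had 39.1, 41.2 and 36.1 RPKM in shOpa1, against 29.8, 31.0 and 24.7 RPKM in shControl. In each pair Micos10 rose by more than the MICOS sum in RPKM fell, so that direction holds for the 6 subunits only. Immt made up 7.73 ± 0.771% of the summed MICOS RPKM in shOpa1 and 12.1 ± 1.24% in shControl, and Chchd6 made up 26.6% in shOpa1 and 20.9% in shControl. Samm50 made up 26.5 ± 1.40% of the summed RPKM of the partners in shOpa1 and 34.6 ± 1.43% in shControl, and Mtx2 made up 42.9% in shOpa1 and 30.2% in shControl.

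These shares and the order of levels depend on the length used. The merged exons of Immt span 11353 bases in all, while its longest coding transcript has 2728 bases. With the length of the longest coding transcript, an alternative chosen after the data were seen, Immt made up 16.8% of the MICOS sum in shOpa1 and 25.9% in shControl. On that scale the shOpa1 order was led by Chchd6 at 67.9 RPKM and Micos13 at 54.7 RPKM. Next in shOpa1 were Immt at 36.4 RPKM and Chchd3 at 36.4 RPKM, whose library ranges overlapped. Dnajc11 at 26.2 RPKM and Mtx2 at 24.8 RPKM followed in shOpa1, then Apoo at 20.4 RPKM and Samm50 at 17.4 RPKM, which overlapped, then Mtx1 at 14.3 RPKM and Apool at 1.46 RPKM. In shControl the order began with Immt at 59.6 RPKM, Micos13 at 57.2 RPKM and Chchd6 at 55.8 RPKM, with overlapping ranges between neighbours. Chchd3 at 28.9 RPKM, Dnajc11 at 28.4 RPKM, Apoo at 27.6 RPKM and Samm50 at 24.0 RPKM also overlapped their neighbours in shControl, as did Mtx1 at 19.4 RPKM and Mtx2 at 18.4 RPKM, with Apool last at 1.69 RPKM. With merged exon lengths Immt ranked 7 of 10 in both groups, but in shControl its library range overlapped that of Mtx2 above it, which in turn overlapped that of Chchd3.

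**Figure D4:**
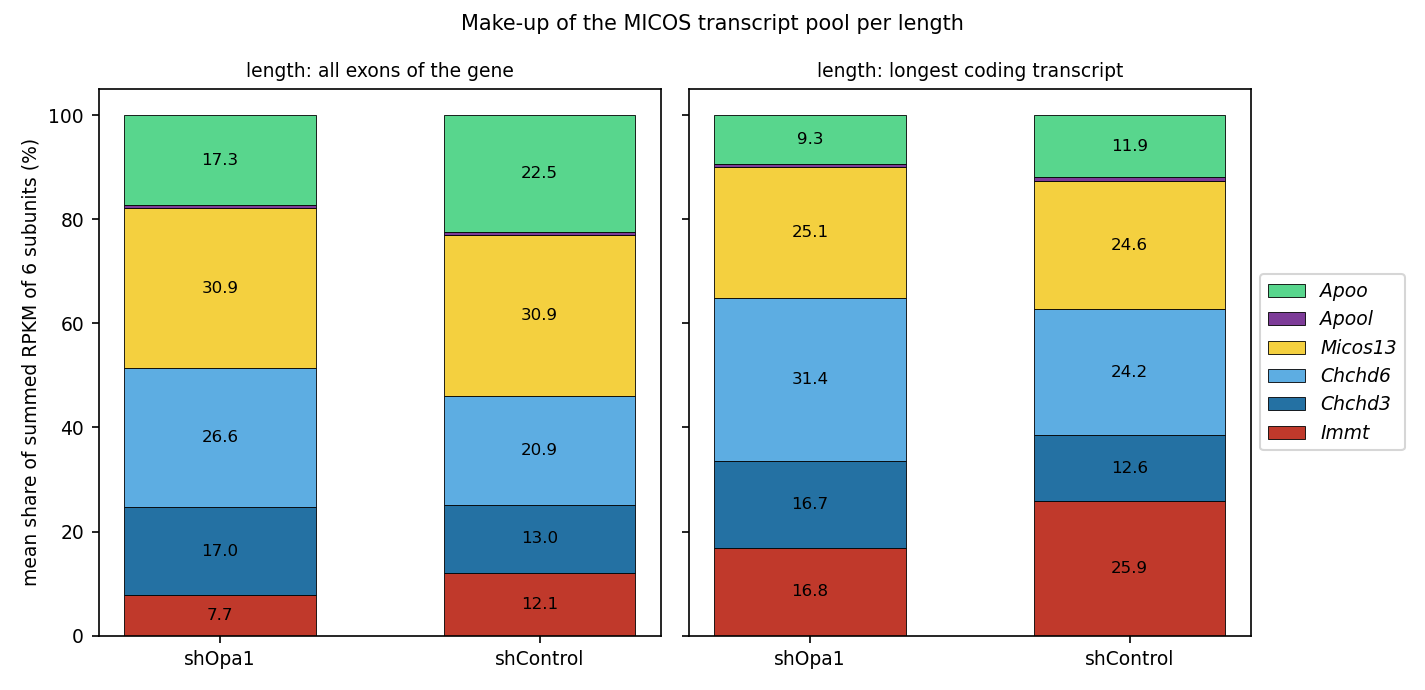
Mean share of each of the 6 MICOS subunits in their summed RPKM (vertical axis, percent) in shOpa1 (left bar of each panel) and shControl (right bar), n = 3 libraries each, with lengths of all exons (left panel) and of the longest coding transcript (right panel). The share of Immt is 7.73% in shOpa1 and 12.1% in shControl in the left panel, and 16.8% in shOpa1 and 25.9% in shControl in the right panel.

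The letters GAAACTA were looked for in the members because an earlier search of the same fold changes had singled them out among genes that fell, so their presence here is not independent evidence. Among the 10 genes, 3 carried the letters in their longest coding transcript, against 17.6% of the 14030 tested genes with a coding transcript. Each carrier is shown with the Opa1 transcript, over 30 bases read 5′ to 3′ on the gene's strand (GRCm38, GENCODE), with the letters in capitals.
Immt, exon 15 of 15, coding sequence, chr6:71874850-71874856: gaatgaccctaGAAACTAagcagatagtgg
Mtx1, exon 4 of 8, coding sequence, chr3:89210596-89210602: ctgctggaggaGAAACTActgcctgtgcta
Dnajc11, exon 16 of 16, 3′ UTR, chr4:151981234-151981240: caatgggtttgGAAACTAgtctcttttctt
Opa1, exon 13 of 29, coding sequence, chr16:29611584-29611590: ccgacacaaagGAAACTAttttcagtatca
Of the carriers, Immt and Mtx1 fell and Dnajc11 did not pass the test. Samm50, which fell, and Chchd3, Chchd6 and Mtx2, which rose, carried no match in that transcript. Outside the 7 letters the sites were not compared, and their part in the changes was not tested.

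The genes whose profile lay nearest to that of Immt were found by the Euclidean distance of mean-centred log2 CPM over the 6 libraries, among 12944 genes with a mean of at least 50 counts. They were Kcnd1, a voltage-gated potassium channel, at a distance of 0.0443, Mapk8ip2, a neuronal scaffold of the JNK pathway, at 0.0485, and Babam2, a subunit of a deubiquitinating complex, at 0.0829. Kcnd1 had 15.7, 16.5 and 16.2 CPM in shOpa1, against 25.4, 27.3 and 27.3 CPM in shControl. Mapk8ip2 had 240, 244 and 245 CPM in shOpa1, against 379, 409 and 393 CPM in shControl. These genes were selected for this likeness, so their values describe the selection.

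Other genes of cristae and the bridge, and of protein import, the porins and cardiolipin, were counted in 5 lists of 39 genes. All passed the low-count filter. Of these 15 rose, 4 fell and 20 did not pass, against 18.9% of all tested genes called higher and 20.0% called lower. Their median log2 fold change was 0.19, against -0.01 over all tested genes. The lists of the import gate and porins, the import relay and cardiolipin gave 6, 2 and 2 of the 15, and are described below. With the replicate block 23 of the 39 were higher and 6 lower, against 28.8% and 30.7% of all tested genes. Without shOpa1 replicate 2 the number higher was 9, against 12.8% of all genes tested there. Among 16 other proteins that shape cristae, 4 rose and 3 fell, Opa1, the targeted gene, being among those that fell. Without Opa1, 6 of 15 were called, a share close to the 38.9% of all tested genes, and their median log2 fold change was 0.07. Ghitm, an inner-membrane protein needed for cristae organization, averaged 420.9 ± 23.7 CPM in shOpa1 and 220.8 ± 13.0 CPM in shControl, a log2 fold change of 0.93 (SE 0.0709; edgeR adjusted p = 0.000135). The prohibitin Phb rose by 0.40, its partner Stoml2 by 0.45 and the outer-membrane protein Slc25a46 by 0.31 on the log2 scale. Opa1 fell by 4.48, the inner-membrane protease Yme1l1, which cleaves Opa1, by 0.50, and the ATP synthase inhibitor Atp5if1 by 0.36. The Opa1-cleaving protease Oma1 did not pass, at 3.35 ± 0.713 CPM in shOpa1 and 3.56 ± 0.158 CPM in shControl (edgeR adjusted p = 0.744).

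Mic19 and Mic25 enter mitochondria through the disulfide relay of the intermembrane space, in which 2 of 3 genes rose, against 18.9% of all tested genes. The sulfhydryl oxidase Gfer averaged 30.8 ± 0.455 CPM in shOpa1 and 22.7 ± 2.11 CPM in shControl (log2 fold change 0.44; edgeR adjusted p = 0.00640), and Aifm1, which anchors the receptor Chchd4, rose by 0.24. Chchd4 itself averaged 45.1 ± 1.59 CPM in shOpa1 and 42.5 ± 2.10 CPM in shControl (edgeR adjusted p = 0.345). In the outer membrane, 6 of 10 genes of the protein import gate and the porins rose, and 0 fell, against 18.9% of all tested genes called higher and 20.0% called lower, with a list median of 0.36. With the replicate block 8 of the 10 were higher, against 28.8% of all tested genes. The import pore Tomm40 averaged 120 ± 3.97 CPM in shOpa1 and 83.5 ± 7.15 CPM in shControl (log2 fold change 0.52; edgeR adjusted p = 0.00180). Tomm20 rose by 0.44, Tomm70a by 0.43, the porin Vdac3 by 0.39, Tomm5 by 0.32 and Tomm22 by 0.23 on the log2 scale. Samm50, which receives barrel precursors that have passed this gate, was lower in the same libraries. Of 7 genes of the synthesis and remodelling of cardiolipin, the lipid of cristae, 2 rose and 1 fell, a share of 42.9% called that is close to the 38.9% of all tested genes. With the replicate block 5 were higher and 2 lower, against 28.8% and 30.7% of all tested genes. Ptpmt1 rose by 0.52 and Pgs1, which makes the first committed precursor, by 0.47, while the phospholipase Pla2g6 fell by 0.33.

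**Figure D5:**
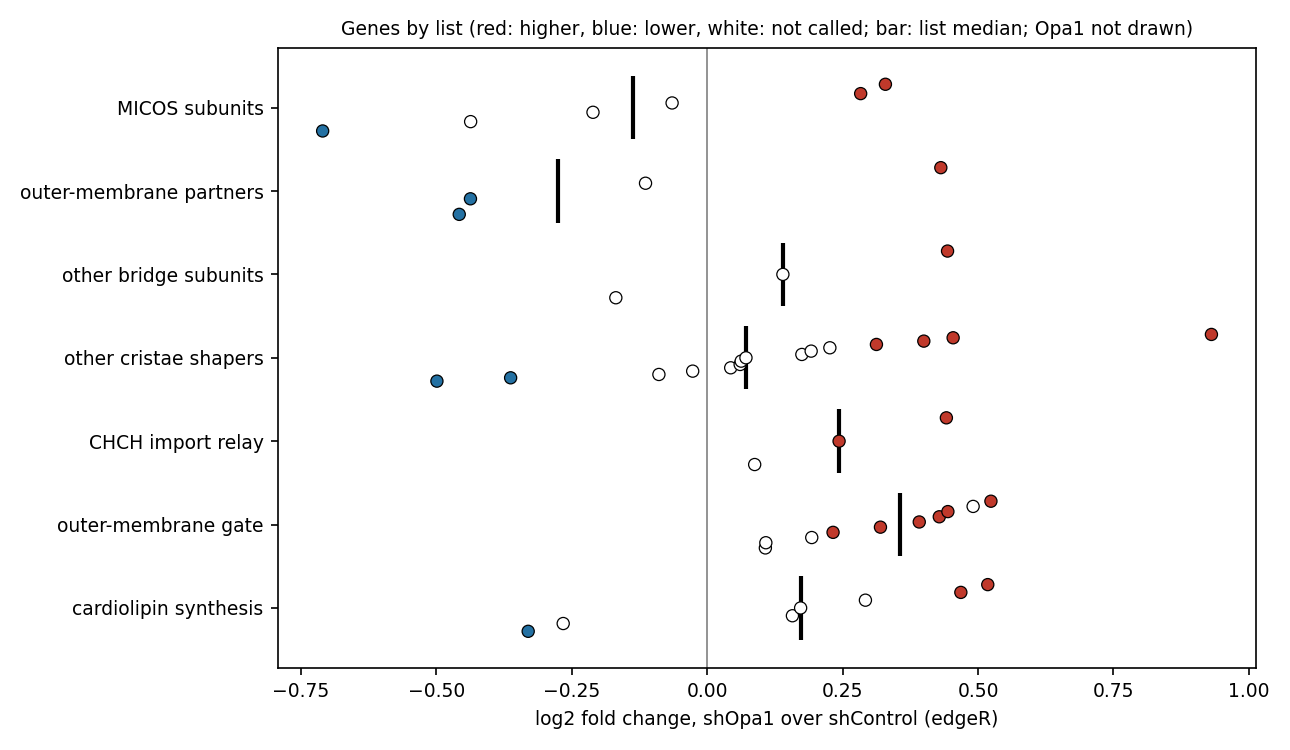
Log2 fold change of shOpa1 over shControl (horizontal axis) for each gene of 7 lists (rows), with red points called higher, blue points called lower and white points not called by edgeR. Black bars are list medians, which run from -0.28 for the outer-membrane partners to 0.36 for the outer-membrane gate. Opa1, at -4.48, is left out of the drawing and of the median bar of its list.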

How the data were processed

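RNA from 3 shOpa1 and 3 shControl libraries was made into stranded mRNA libraries, per the labels' protocols. The authors deposited raw read counts per gene, made, per the file headers, with featureCounts 1.6.0 without a strand option on Ensembl 99 models (GRCm38). HISAT2, mm10 and DESeq2 are named, with no version, per the submitters' processing notes. The authors' deposited comparison gives log2 fold changes, p-values, a score (fold change over its error) and counts divided by a size factor, a normalised signal. The score and the normalised signal were not used here, and 0 columns of values lacked a sample.

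Counts were tested with edgeR 4.0.16 in R 4.3.3 by group alone (quasi-likelihood, TMM factors, filterByExpr defaults, robust), at an adjusted p of 0.05. The SE is the log2 fold change over the square root of F. CPM and RPKM use TMM-scaled library sizes, and pair differences use log2(CPM + 0.5). Replicate numbers come from the labels. Deviations from group means correlated at 0.519, 0.537 and 0.666 within same-numbered pairs. Each number was therefore used as a pair in the replicate block and the pair differences. Calls given without naming the block come from the fit by group alone, which ignores the pairs. The origin of each replicate is given only as biological, so p-values reflect spread among these libraries.

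Alternatives were DESeq2 1.42.0 and its size factors, upper-quartile scaling, limma-voom 3.58.1, no filter, the replicate block, replicate 3 as a batch, replicates 1 and 2 only, each library left out, TPM and, added after the data were seen, mRNA length. Python 3.11.15 was used for ratios and sequences, and the fits were tested on simulated data. Named genes were all 10 members, every called gene of the 5 lists and the 3 genes nearest to Immt. Thbs3, Gm43737, Apoo-ps, Mtx3, Armc1, Oma1, Chchd4, Itgam, Aif1, Csf1r, Slc1a2 and Sox10 were named outside that rule, after their values were seen. The members, lists and tests were chosen with earlier results of these data known.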

Additional observations from a re-analysis of the deposited data

How the results depend on the processing

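Leaving out 1 library at a time gave log2 fold changes of -0.73 to -0.70 for Immt, 0.28 to 0.39 for Chchd3, 0.26 to 0.30 for Chchd6, 0.41 to 0.45 for Mtx2, -0.52 to -0.39 for Samm50 and -0.47 to -0.39 for Mtx1, and only the call of Chchd3 was lost among these. Apoo, from -0.53 to -0.29, was called only without shControl replicate 3 (edgeR adjusted p = 0.0363). Micos13 ran from -0.21 to 0.0586, with the sign turned, at 0.0487 without shOpa1 replicate 3 and 0.0586 without shControl replicate 2. Apoo was also called with no low-count filter, DESeq2, the replicate block, replicate 3 as a batch, and replicates 1 and 2 only (adjusted p 0.0259, 0.0319, 0.000115, 0.000135 and 0.00135), the cause not being tested. The block changed no other call among the 10. The count of other cristae and bridge genes called higher was 15, 23 with the replicate block, and 9 to 16 with 1 library left out. The log2 ratio of Chchd6 to Chchd3 ran from -0.11 to 0.00026 with 1 library left out, turning sign without shOpa1 replicate 1. Within same-numbered pairs the exact sign-flip test gave p = 0.25 for Mtx2 to Mtx1, the smallest that 3 pairs allow. The summed level of the outer-membrane partners, as a log2 difference, was 0.0895 in TPM. With mRNA length, chosen after the data were seen, Immt made up 16.8% of the 6-subunit MICOS sum in shOpa1 and 25.9% in shControl. Samm50 made up 21.1% of the partners in shOpa1 and 26.6% in shControl. Here only the gene lengths differ. With 1 library left out, Apool ran from -0.34 to -0.03, the log2 ratio of Apool to Apoo from 0.12 to 0.36, and the log2 difference of the summed MICOS level from -0.14 to 0.02. With 53 to 80 reads per library, Apool has the widest error of the 10.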

Other observations

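The ratios of the MICOS subunits that rose to Immt were taken after their values had been seen and are given as a description, with no test, in RPKM with merged exon length. The ratio of Chchd3 to Immt was 2.33, 2.32 and 2.00 in shOpa1, against 1.17, 1.06 and 1.02 in shControl. That of Chchd6 to Immt was 3.41, 3.51 and 3.40 in shOpa1, against 1.74, 1.75 and 1.69 in shControl. For Micos10, encoding the membrane-bending Mic10, the ratio to Immt was 4.56, 4.61 and 4.12 in shOpa1, against 2.14, 2.13 and 1.72 in shControl. The shOpa1 ratios were higher by 2.05-fold, 1.99-fold and 2.23-fold on the geometric mean, and in each the groups did not overlap. The absolute size of these ratios depends on the merged exon length of Immt, and the fold between groups does not.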
